A study of Rattus norvegicus with 9 samples.

Results

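The Rab3 family and its regulators were followed in the posterior cricoarytenoid of rats aged 6, 18 and 30 months. Members were all probe sets of the array whose annotation names a single gene, that gene being *Rab3b*, *Rab3a*, *Rab3d*, *Madd*, *Rph3a* or *Rims1*. There were 7 such probe sets for these 6 genes, out of 7006 single-gene probe sets for 4736 genes. The group was selected on the measured signal of *Rab3b*, which was higher at 18 and at 30 months than at 6 months. Those *Rab3b* changes are therefore given as a description, with no test.

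The posterior cricoarytenoid is the laryngeal muscle that opens the vocal folds. Affymetrix Rat Genome U34 chips were used, 3 for each age, with the muscles of 4 animals combined in each RNA sample. Spread between arrays of an age is thus spread between pools, and nothing in the labels separates differences between animals from differences between preparations. The sources used here name no strain, sex, genotype or treatment, so the groups differ in the labels by age alone.

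Rab3 proteins are small GTPases of secretory and synaptic vesicles. They sit on the vesicle when loaded with GTP, recruit effectors that tether it near the plasma membrane, and leave it after GTP is hydrolysed. Rab3a is the main form at nerve terminals, including the motor terminal on muscle, while Rab3b and Rab3d are best known from endocrine and exocrine secretory cells. Madd is a DENN-domain protein that exchanges GDP for GTP on Rab3, and Rph3a (rabphilin) and Rims1 (an active-zone scaffold) bind Rab3 in its GTP form.

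The stretches upstream of the genes are shown for the 3 members whose signals at 30 months lay above all signals at 6 months. Each is the 250 bases before the gene's annotated start in RefSeq on the assembly GRCr8, written 5′ to 3′ along the gene. Capitals mark matches, on either strand, to a GC box (GGGCGG), an E-box (CANNTG) or the core of a cyclic AMP response element (TGACG).
Rab3b promoter, chr5:128858841-128859090, plus strand: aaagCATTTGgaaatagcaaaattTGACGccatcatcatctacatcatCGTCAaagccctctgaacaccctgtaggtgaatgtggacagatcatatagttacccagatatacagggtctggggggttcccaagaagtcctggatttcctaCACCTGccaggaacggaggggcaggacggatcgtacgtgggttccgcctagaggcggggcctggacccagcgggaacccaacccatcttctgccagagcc
Rab3a promoter, chr16:18722274-18722523, minus strand: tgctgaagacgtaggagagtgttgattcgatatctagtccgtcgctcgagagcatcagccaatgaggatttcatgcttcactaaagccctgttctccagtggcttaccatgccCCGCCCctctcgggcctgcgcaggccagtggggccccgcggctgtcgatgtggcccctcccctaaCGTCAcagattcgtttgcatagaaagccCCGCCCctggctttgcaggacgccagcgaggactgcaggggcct
Madd promoter, chr3:97613510-97613759, minus strand: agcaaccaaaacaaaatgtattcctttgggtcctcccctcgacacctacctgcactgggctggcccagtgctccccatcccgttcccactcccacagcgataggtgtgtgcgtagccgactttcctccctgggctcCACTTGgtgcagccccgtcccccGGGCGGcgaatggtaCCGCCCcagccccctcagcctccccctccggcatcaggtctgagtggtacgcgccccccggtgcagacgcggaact
All 6 members had an entry. A GC box occurred in 30.5% of 33469 rat promoters of this length, and here *Rab3b* had 0 matches while *Rab3a* and *Madd* had 2 each. An E-box occurred in 65.5% of promoters. *Rab3b* had 2 E-boxes, *Madd* had 1 and *Rab3a* had 0. The TGACG core occurred in 18.2%, with 2 matches at *Rab3b*, 1 at *Rab3a* and 0 at *Madd*. No matches overlapped in these 3 stretches. GC content was 53.6% for *Rab3b*, 60.4% for *Rab3a* and 65.2% for *Madd*, against a median of 51.2% over all promoters. A match is a run of letters and says nothing about which protein binds there.

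Correlations between whole arrays did not separate the ages. Log2 signals correlated at 0.972 to 0.984 within an age and 0.967 to 0.988 between ages, across probe sets that differ widely in level. The 2% trimmed mean signal was 500.9 to 501.0 on all arrays, which global scaling of the signals sets in advance, so it does not measure quality. RNA quality was not examined. Skeletal muscle markers were strong, with creatine kinase (*Ckm*) at a mean signal of 34163, 44700 and 45860 at 6, 18 and 30 months; no muscle marker read 0 on any array. The arrays of replicate 3 at 18 and at 30 months stood apart in thyroglobulin (*Tg*), the storage protein of the neighbouring thyroid gland. It read 628.2 and 555.2 on those arrays and 30.2 to 108.6 on the other 7. Values without both arrays are given below where they bear on a result. In this bulk tissue, a change in the number of cells of a type and a change in RNA per cell cannot be told apart.

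*Rab3b* had the highest changes among the members at both later ages. Its brighter probe set (AA799389_g_at) read 1246.2, 1023.8 and 1114.2 on the 6-month arrays, 2379.1, 2526.8 and 2386.2 on those of 18 months, and 2147.6, 2425.6 and 2612.4 on those of 30 months. Every array of 18 and 30 months lay above every array of 6 months. The mean at 18 months was 2.15 times that at 6 months, and across the 9 pairings of an 18-month with a 6-month array the ratio ran from 1.91 to 2.47. At 30 months the ratio of means was 2.12, with pairings from 1.72 to 2.55. All 9 ratios at each later age exceeded 1.7, the average change that the submitters asked for.

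The dimmer probe set of *Rab3b* (AA799389_at) gave the same order of ages at a lower signal. It read 408.2, 356.6 and 378.5 at 6 months. The 18-month arrays gave 852.7, 831.3 and 830.4, and the 30-month arrays gave 695.4, 746.4 and 787.6. The coefficient of variation between arrays was 6.80% at 6 months, 1.51% at 18 months and 6.22% at 30 months. On the log2(signal + 32) scale, this probe set changed by 1.08 at 18 months (SE 0.11) and 0.91 at 30 months (SE 0.11), and the brighter one by 1.09 and 1.06 (SE 0.12 each). Both probe sets were designed on the same transcript sequence, so they are not independent readings. Their deviations from the age means correlated at 0.937 over the 9 arrays, which share RNA as well as target.

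Between 18 and 30 months the readings of *Rab3b* parted slightly. In the dimmer probe set all 3 arrays of 30 months lay below all 3 of 18 months, with a ratio of means of 0.887 and a log2 change of -0.17 (SE 0.11). In the brighter one the ages overlapped, with a ratio of 0.985 and a log2 change of -0.02 (SE 0.12). The signals of both ages entered the selection of the group, so these changes too are a description with no test. In 4.18% of the 5244 probe sets tested, the 30-month arrays likewise lay below the 18-month arrays without overlap. In these readings the *Rab3b* difference from 6 months was already present at 18 months, and no further step of that size was seen.

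**Figure D1:**
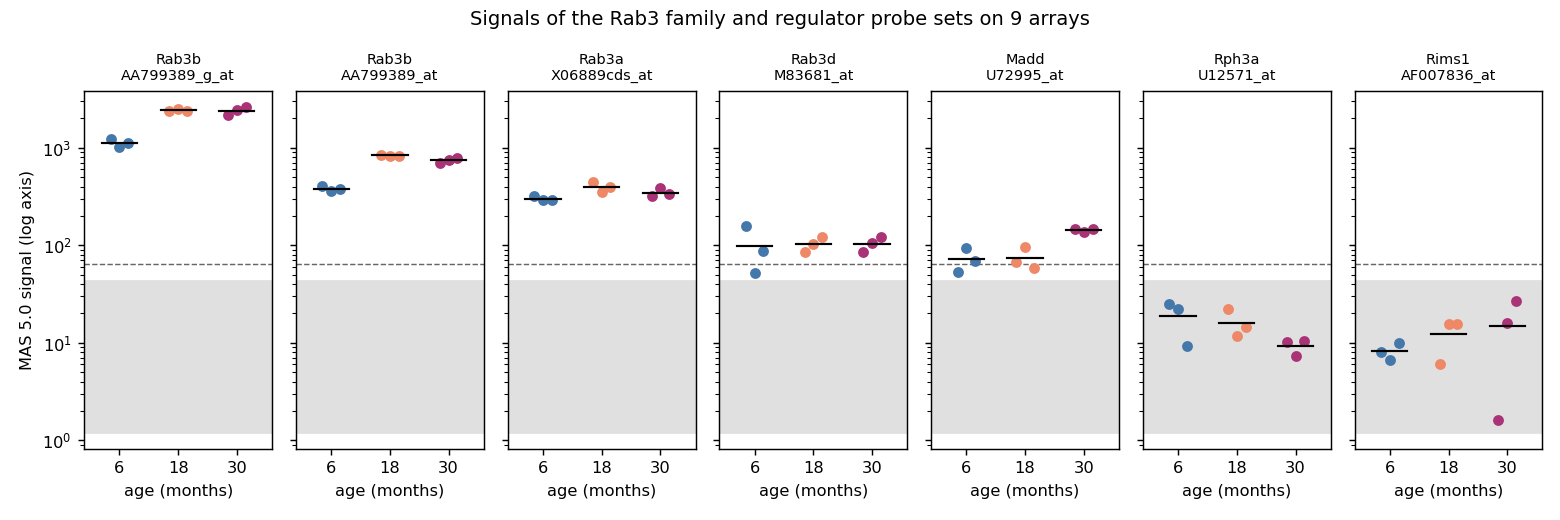
Signals of the 7 probe sets of the Rab3 family and its regulators on a log axis, by age in months; points are the 3 arrays of each age and bars their means. The dashed line is the signal that corresponds to the filter (65.0), and the grey band spans the 7 control probe sets for yeast and bacterial transcripts (1.2 to 43.2). *Rab3b* lies higher at 18 and 30 months in both probe sets, *Madd* only at 30 months, and *Rph3a* and *Rims1* lie inside the band.

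*Rab3a*, the form of nerve terminals, showed a smaller difference. It read 316.9, 289.2 and 293.8 on the 6-month arrays, 450.9, 350.1 and 396.7 on those of 18 months, and 322.4, 385.6 and 335.3 on those of 30 months. All arrays of both later ages lay above the 6-month arrays, by 1.02 times in the closest pairing at 30 months and 1.10 times in the closest at 18 months. The log2 change was 0.37 at 18 months (SE 0.12, 95% interval 0.09 to 0.65) and did not pass limma's test over all probe sets tested (adjusted p = 0.477). At 30 months it was 0.19 (SE 0.12, 95% interval -0.09 to 0.47, limma adjusted p = 0.521).

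Markers of neurons and motor axons did not have a higher summed signal at the later ages. Of 14 listed genes 11 were on the array, none of them at a signal of 0, and 7 of these passed the signal filter. Their summed signal was 1225 to 1441 at 6 months, 1020 to 1413 at 18 months and 912 to 1197 at 30 months. At 30 months, when *Rab3a* was above its 6-month values, this sum lay below its own 6-month values without overlap. Schwann cell markers summed to 4049 to 4930, 3686 to 4427 and 3806 to 4225, and these overlapped. Their part in the *Rab3a* signal was not tested.

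*Rab3d*, the form of exocrine granules and mast cells, was dim and variable. It read 159.2, 51.7 and 86.5 at 6 months. The 18-month arrays gave 84.5, 103.2 and 121.6, and the 30-month arrays gave 85.4, 104.5 and 121.3. The ages overlapped, and the 6-month arrays alone spanned the values of both later ages. Its log2 change was 0.12 at 18 months (95% interval -0.47 to 0.70, limma adjusted p = 0.912) and 0.12 at 30 months (95% interval -0.46 to 0.71, limma adjusted p = 0.868). These intervals leave room for a change of more than 0.4 on the log2 scale either way, and without replicate 2 of 6 months the estimates were -0.17 and -0.16. Of 11 mast cell markers 10 were on the array, none at 0, and 4 of these passed the signal filter. The 10 markers summed to 1099 to 1367 at 6 months, 734 to 1106 at 18 months and 820 to 843 at 30 months. They were lower at 30 months without overlap, and their part in the *Rab3d* signal was not tested.

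*Rab3c*, the other nerve-terminal form, is not a member and was looked up after the values of the others were seen. Its probe sets read 14.5 to 62.5 and 3.7 to 8.6 over all arrays. Neither passed the signal filter, and their log2 changes lay between -0.18 and -0.04 at both later ages.

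*Madd*, the exchange factor, stood higher at 30 months without overlap but did not pass the test. It read 53.6, 94.4 and 68.4 on the 6-month arrays, 68.2, 97.1 and 59.1 on those of 18 months, and 146.2, 135.4 and 145.7 on those of 30 months. The 30-month arrays were tightly grouped (mean 142 ± 6.10, SD, n = 3) and lay above all arrays of both other ages. The mean at 30 months was 1.97 times that at 6 months, and 6 of 9 pairings exceeded 1.7. The log2 change was 0.76 (SE 0.17, 95% interval 0.38 to 1.15). It was past an unadjusted p of 0.05, and it did not pass limma's test over all probe sets (adjusted p = 0.162). Over the alternatives its adjusted p in limma ran from 0.113 to 0.437.

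In 3.18% of all probe sets the 30-month arrays lay above the 18-month arrays without overlap, as they did for *Madd*. Against 18 months its change was 0.72 (SE 0.17, 95% interval 0.34 to 1.11, limma adjusted p = 0.999). At 18 months against 6 months it was 0.04 (95% interval -0.35 to 0.42, limma adjusted p = 0.953). The mean signals of *Madd* at 6 and 18 months, 72.1 and 74.8, were themselves above the 65.0 that corresponds to the filter, so it did not enter the test through its 30-month arrays alone. Of the macrophage and lymphocyte markers, 8 of 11 were on the array, 4 of them past the signal filter and none at 0. Their summed signal also stood higher at 30 months. It was 1108 to 1264 at 6 months, 1028 to 1181 at 18 months and 1360 to 1863 at 30 months. Gene by gene, 6 of the 8 had a positive log2 change at 30 against 6 months. The brightest, *Lyz2* and *Cd74*, each overlapped their own 6-month values. Their lowest readings at 30 months were 641.9 and 380.7, and their highest at 6 months 655.0 and 442.7. The part of these markers in the *Madd* signal was not tested.

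The effectors *Rph3a* and *Rims1* could not be told from background. *Rph3a* read 25.1, 22.2 and 9.2 at 6 months. The 18-month arrays gave 22.1, 11.6 and 14.5, and the 30-month arrays gave 10.2, 7.3 and 10.5. *Rims1* read 8.0, 6.7 and 9.9 on the 6-month arrays, 6.1, 15.6 and 15.4 on those of 18 months, and 1.6, 15.8 and 26.7 on those of 30 months. The 7 control probe sets for yeast and bacterial transcripts, which have no target in rat RNA, read 1.2 to 43.2 over the same arrays. Every value of both effectors lay within that span, so a change with age was not detectable here. Neither passed the signal filter, which kept the upper 60% of probe sets.

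Of the 6 members, then, 4 genes with 5 probe sets were tested. Apart from *Rab3b*, 0 of the 3 other genes passed an adjusted p of 0.05 in limma in any comparison, where 0.0763% of all probe sets passed at 18 against 6 months, 0.324% at 30 against 6 months and 0.0191% at 30 against 18 months. At an unadjusted p under 0.05, *Rab3a* passed at 18 against 6 months, where 8.62% of all probe sets did in either direction. *Madd* passed at 30 against 6 months and at 30 against 18 months, where 12.9% and 3.2% did. Without overlap between ages, 3 of the 5 member probe sets were higher at 18 months than at 6 months, where 5.32% of all probe sets were. At 30 months 4 of 5 were, where 7.4% of all probe sets were. These shares include the *Rab3b* contrasts that brought the genes together, and nothing is read from them.

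**Figure D2:**
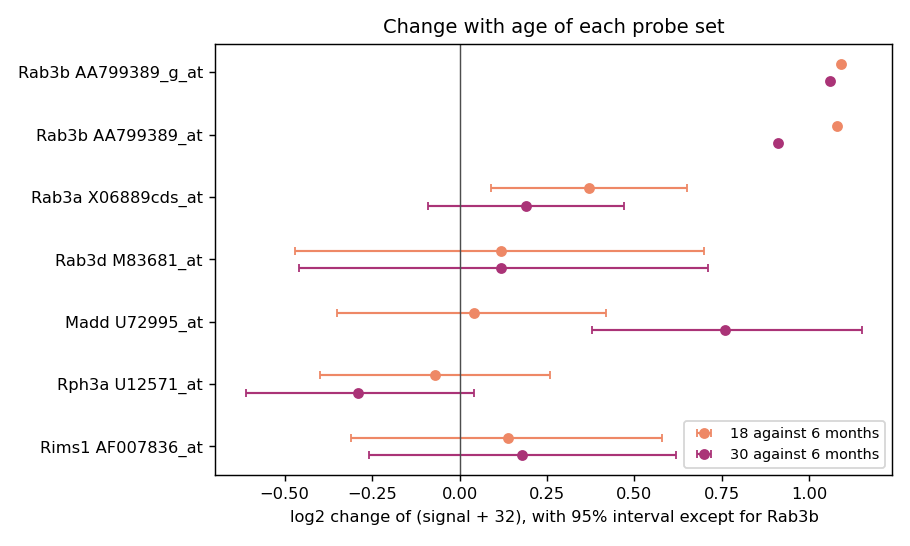
Log2 change of (signal + 32) for each member probe set at 18 against 6 months (orange) and 30 against 6 months (purple), with the 95% interval from limma for all but *Rab3b*, which was selected on these changes. Both *Rab3b* probe sets lie near 1 at either age, *Madd* lies at 0.04 at 18 months and at 0.76 at 30 months, and the intervals of *Rab3d*, *Rph3a* and *Rims1* include 0.

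Levels of different probe sets cannot be set against each other, so their changes on the same arrays were compared. The constant added before taking logs (the pseudocount) shrinks the change of a dim probe set more than that of a bright probe set. With a pseudocount of 8 and of 100, *Madd* changed by 0.94 and 0.5 at 30 against 6 months. The brighter *Rab3b* probe set changed by 1.08 and 1.02. The differences in change given below are therefore tied to the pseudocount used. The log2 signal of *Rab3b* (brighter probe set) minus that of *Rab3a* was 1.87, 1.72 and 1.81 on the 6-month arrays, 2.32, 2.74 and 2.50 on the 18-month arrays, and 2.62, 2.56 and 2.85 on the 30-month arrays. All later arrays lay above all 6-month arrays. The change of *Rab3b* exceeded that of *Rab3a* by 0.72 at 18 months (SE 0.13) and 0.87 at 30 months (SE 0.13). With the dimmer *Rab3b* probe set these were 0.70 and 0.72 (SE 0.10 each). Which transcripts the probe sets of the Rab3 forms can bind was not checked.

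Against *Rab3d* the difference within arrays was 2.74, 3.66 and 3.27 on the 6-month arrays, 4.37, 4.24 and 3.98 on those of 18 months, and 4.21, 4.17 and 4.11 on those of 30 months. Again no later array overlapped the 6-month arrays. The change of *Rab3b* exceeded that of *Rab3d* by 0.97 and 0.94 (SE 0.24 each), or by 0.96 and 0.78 with the dimmer probe set (SE 0.27 each), and *Rab3d* itself had an SD of 54.9 about a mean signal of 99.1 at 6 months.

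With *Madd* the relation depended on age. *Rab3b* minus *Madd* was 3.90, 3.06 and 3.51 on the 6-month arrays. It was 4.59, 4.31 and 4.73 on the 18-month arrays, and 3.61, 3.88 and 3.90 on the 30-month arrays. The 18-month arrays lay above all others, whereas the 30-month and 6-month arrays overlapped. The change of *Rab3b* exceeded that of *Madd* by 1.05 at 18 months (SE 0.23) and by 0.30 at 30 months (SE 0.23). With the dimmer *Rab3b* probe set these were 1.04 and 0.15 (SE 0.22 each). At 30 months the value was 0.14 with a pseudocount of 8 and 0.52 with one of 100. These differences contain the *Rab3b* contrast and carry no test.

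**Figure D3:**
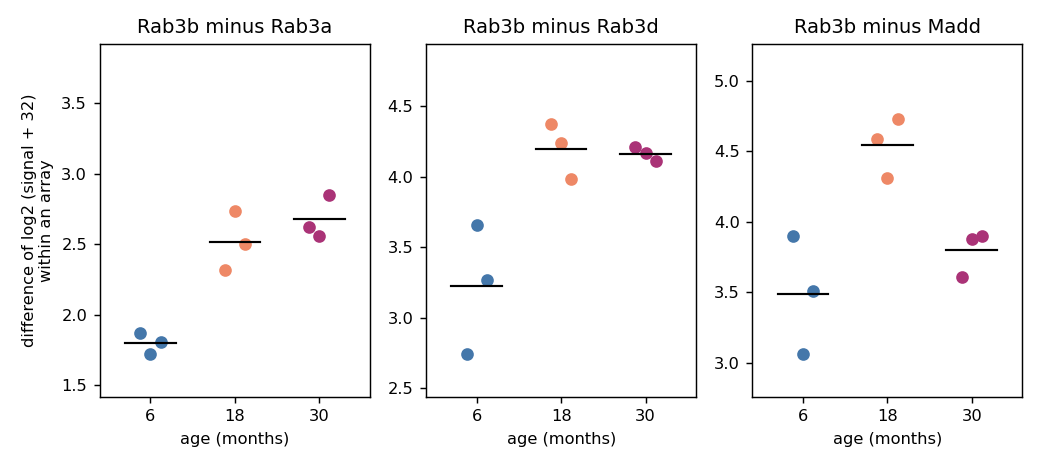
Log2 (signal + 32) of the brighter *Rab3b* probe set minus that of *Rab3a*, *Rab3d* or *Madd* on the same array, by age in months; points are arrays and bars means, and each vertical axis spans the same range but starts at a different value. The later ages lie above 6 months against *Rab3a* and *Rab3d*, while against *Madd* the 30-month arrays return to the range of the 6-month arrays.

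Leaving out the arrays with thyroglobulin signal, an alternative chosen after seeing the data, changed these differences little. The log2 change of the brighter *Rab3b* probe set was then 1.10 at 18 months and 1.00 at 30 months, and that of the dimmer one 1.08 and 0.87. *Rab3a* was at 0.37 and 0.21, and *Madd* at 0.15 and 0.75.

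Skeletal muscle markers moved in the same direction as *Rab3b*. Of 16 listed markers 12 were on the array, and all 12 had a positive log2 change at both later ages. They summed to 197150 to 228335 at 6 months, 233054 to 277410 at 18 months and 238708 to 258396 at 30 months, without overlap between either later age and 6 months. The ratio of mean sums was 1.2 at both later ages, against 2.15 and 2.12 for *Rab3b*. Endothelial and smooth muscle markers summed to 3323 at 18 months and 3235 at 30 months, against 3352 at 6 months, and adipocyte markers to 13847 and 13537, against 12790. For both lists the sums of the later ages overlapped those of 6 months. Of 7 adipocyte genes on the array, 4 had a positive log2 change at 18 months and 3 at 30 months. Of 7 endothelial and smooth muscle genes, 2 and 1 did. Epithelial and gland markers, among them the cells in which Rab3b is usually described, averaged 563 and 515, against 633 at 6 months. Their sums overlapped, at 506 to 664 at 18 months and 477 to 543 at 30 months, against 524 to 815. Of their 10 genes on the array 4 passed the signal filter. The thyroid and C cell markers averaged 778 and 726, against 649, with the *Tg* arrays included. None of the markers in these lists read 0 on any array, and the part of each cell type in the *Rab3b* signal was not tested.

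The 6 genes whose log2 signals followed *Rab3b* most closely over the 9 arrays were *Slc25a3*, the mitochondrial phosphate carrier (Pearson r = 0.968), *Gpx2*, a glutathione peroxidase (0.949), *Ckm* (0.947), *Ptms*, which encodes parathymosin (0.946), *Myh2*, the IIa myosin heavy chain (0.943), and *Fmo1*, a flavin-containing monooxygenase (0.941). Their log2 changes were smaller than those of *Rab3b*, from 0.35 to 0.64 at 18 months and from 0.34 to 0.69 at 30 months. The other probe sets of *Ptms* correlated at only 0.24 and -0.13. All genes share the arrays and their scaling, and the correlations include the differences between ages. After the age means were removed, r was 0.826 for *Gpx2*, 0.673 for *Slc25a3*, 0.524 for *Ptms*, 0.464 for *Ckm*, 0.454 for *Myh2* and -0.46 for *Fmo1*. Among the members, r with *Rab3b* was 0.735 for *Rab3a*, 0.425 for *Madd* and 0.327 for *Rab3d*.

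Genes that run the Rab3 cycle did not pass the test at any age. The list held 13 genes, of which 6 were on the array and tested: the GDP dissociation inhibitor *Gdi2*, the prenylation genes *Chm*, *Rabggta* and *Rabggtb*, the Rab acceptor *Rabac1* and the Rab3-binding exchange factor *Rab3ip*. None passed in limma, and 0 of 6 at 18 months and 1 of 6 at 30 months (*Rab3ip*, log2 change -0.35) had an unadjusted p under 0.05, where 8.62% and 12.9% of all probe sets did. The median log2 change was -0.08 at 18 months and -0.01 at 30 months (-0.07 without the arrays with thyroglobulin signal), against -0.04 and -0.05 over all probe sets tested. *Rabac1* had log2 changes of 0.13 at 18 months and 0.10 at 30 months (SE 0.12 each). *Rabggtb*, a subunit of the enzyme that adds the lipid anchor to Rab proteins, read 1238 ± 81.5 and 1420.0 ± 125, against 1335 ± 173 (SD, n = 3 each). *Gdi2*, which extracts GDP-bound Rab from membranes, read 962 ± 30.8 and 947 ± 48.8, against 888 ± 153 (SD, n = 3 each).

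Further Rab3 effectors and active-zone genes, 27 in the list, were mostly dim: 12 were on the array and 6 passed the signal filter. None passed in limma in either direction, and 1 of 6 at 18 months and 0 of 6 at 30 months had an unadjusted p under 0.05, against the same 8.62% and 12.9%. At 18 months 2 were higher and 4 lower (median log2 change -0.19), and at 30 months 1 was higher and 5 lower (median -0.16, and -0.07 without the arrays with thyroglobulin signal). *Calm2*, which encodes calmodulin, read 2303 ± 411 at 18 months and 2205 ± 67.0 at 30 months, against 2588 ± 213 at 6 months (SD, n = 3 each). *Rph3al*, the rabphilin-like effector also known as Noc2, read 491 ± 70.7 and 467 ± 22.1, against 430.0 ± 51.5 (SD, n = 3 each). Its log2 changes were 0.18 and 0.12, and its other probe set gave -0.32 and -0.12. The calcium channel gene *Cacna1a* had log2 changes of -0.20 and -0.10, with 0.17 and 0.41 in another of its probe sets. Its remaining probe sets gave -0.26 and 0.00, and, below the signal filter, -0.34 and -0.19.

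Genes of vesicle docking and fusion numbered 37 in the list, 29 on the array and 18 tested, each counted by its brightest probe set. None passed in limma, and 0 of 18 at 18 months and 3 of 18 at 30 months had an unadjusted p under 0.05, where 8.62% and 12.9% of all probe sets did. The median log2 change was -0.04 at 18 months and -0.05 at 30 months, the same as over all probe sets tested, and without the arrays with thyroglobulin signal it was -0.12 at 30 months. *Napa*, the adaptor of the SNARE disassembly ATPase, had log2 changes of 0.06 and -0.16, with 0.19 and 0.18 in its other probe set. *Vamp2*, a vesicle SNARE, had 0.01 and 0.00, although its other probe set gave -0.48 and -0.57. *Syngr2*, a synaptogyrin of vesicles outside neurons, had -0.02 and 0.07. At 30 months 5 of the 18 lay below their 6-month values without overlap, as 14.8% of all probe sets did. At 18 months 1 did (*Stx1a*, a plasma membrane SNARE), where 8.35% of all probe sets did.

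Other Rab GTPases gave a wider set of relatives for *Rab3b*, and no Rab3 form was among those tested. Of 35 listed, 23 were on the array and 19 were tested, each counted by its brightest probe set. None passed in limma in either direction, nor at an unadjusted p under 0.05, where 8.62% of all probe sets did at 18 months and 12.9% at 30 months. A dimmer probe set of *Rab5a* was past that unadjusted p at both ages, with log2 changes of -0.29 and -0.37 (adjusted p in limma 0.576 and 0.313). The brightest one of *Rab5a* gave -0.10 and 0.06. At 18 months 7 were higher and 12 lower, with a median log2 change of -0.11 and a range from -0.42 (*Rab14*) to 0.44 (*Rab27a*). At 30 months 9 were higher and 10 lower, with a median of -0.01 and a range from -0.34 (*Rab8b*) to 0.66 (*Rab8a*). Without the arrays with thyroglobulin signal this median was 0.11. The genes at the ends of the ranges were picked after their values were seen. The *Rab3b* change of 1.09 at 18 months and 1.06 at 30 months lay above both ranges, but *Rab3b* was chosen for its change.

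*Rab10*, *Rab12* and *Rab11b* had the brightest probe sets of this list, which is no measure of their RNA levels. *Rab10*, of GLUT4 vesicles, read 3979 ± 99.6 at 18 months and 3976 ± 431 at 30 months, against 3665 ± 657 at 6 months (SD, n = 3 each). *Rab12* read 2527 ± 198 and 2626 ± 194, against 2282 ± 75.9, a log2 change of 0.20 at 30 months (SE 0.11, limma adjusted p = 0.475). *Rab11b*, of recycling endosomes, read 2045 ± 103 and 2156 ± 141, against 1846 ± 142, a log2 change of 0.22 at 30 months (SE 0.11, limma adjusted p = 0.426). At 30 months 2 of the 19 tested other Rab genes (*Rab12* and *Rab11b*) lay above their 6-month values without overlap, where 7.4% of all probe sets did. Another 2 (*Rab8b* and *Rab28*) lay below them, where 14.8% did. The remaining probe sets of *Rab11b* gave log2 changes of 0.13 and -0.02 at 30 months.

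**Figure D4:**
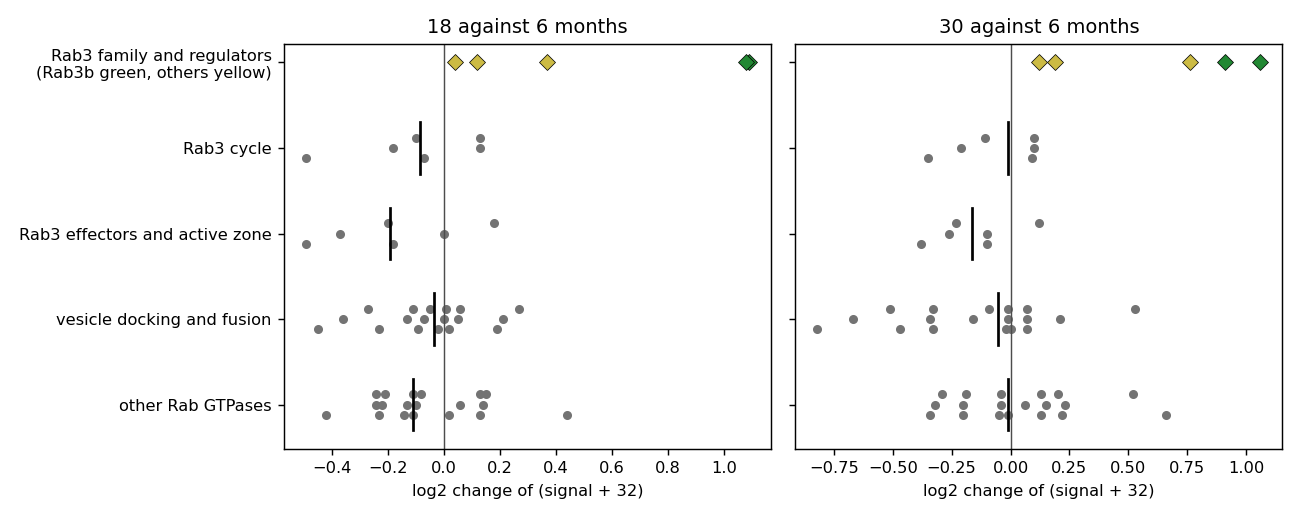
Log2 change of (signal + 32) at 18 (left) and 30 (right) against 6 months for the tested members (diamonds, *Rab3b* in green and the others in yellow) and for each tested gene of 4 gene lists (grey points, black bar at the list median). List medians lie between -0.19 and -0.01, and both *Rab3b* probe sets lie to the right of all list genes.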

How the data were processed

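Posterior cricoarytenoid RNA was measured on 9 arrays, 3 per age. The authors deposited linear signal intensity made with Affymetrix Microarray Suite 5.0, per the series design and the submitters' processing notes. The scaling target is not given in the sources used here. A label field lists Cy3 and Cy5 while the design describes biotin and streptavidin, so each array was read as 1 channel. The submitters required matching detection and difference calls in all replicates; no such calls were used here.

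Of 8799 probe sets, 59 controls were left out. Signals were analysed as log2(signal + 32). The upper 60% by mean (cutoff 6.60, 5244 of 8740) were tested with limma 3.58.1 in R 4.3.3, with 1 mean per age, two-sided p-values and Benjamini-Hochberg adjustment at 0.05 over all of them. Below the filter, values came from a fit without it. The fitting code was tested on simulated data. With 3 arrays per age, their number limits the precision. In the platform annotation 7006 probe sets carry 1 gene symbol, 308 several and 1426 none; all 7 member probe sets matched GRCr8 by gene ID.

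Members and lists were chosen with earlier results of these data known. All members were named, with the 3 brightest tested genes of each list where none passed and the 6 genes closest to *Rab3b* by correlation; any further gene was picked on its values. The brightest probe set represented a gene of a list. Alternatives were other pseudocounts and filters, quantile normalization, a block for replicate number, fits of 2 ages, the other *Rab3b* probe set, a rule on the ratio of means, and leaving out arrays.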

Additional observations from a re-analysis of the deposited data

How the results depend on the processing

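The direction of the *Rab3b* difference from 6 months held in every alternative run. Since every later array lay above every 6-month array, leaving out arrays or changing the pseudocount or filter could not have reversed it. Leaving out 1 array gave log2 changes of 1.02 to 1.16 at 18 months and 1.00 to 1.14 at 30 months in the brighter probe set, and 1.03 to 1.12 and 0.86 to 0.95 in the dimmer one; its change from 18 to 30 months ran from -0.09 to 0.05 in the brighter. Its excess over *Rab3a* ran from 0.61 to 0.82 and from 0.79 to 0.93, over *Rab3d* from 0.73 to 1.19 and from 0.70 to 1.16, and over *Madd* from 0.84 to 1.26 and from 0.09 to 0.51. Leaving out 1 array turned the sign of *Rab3d* (-0.17 to 0.43 at 18 months, -0.16 to 0.44 at 30 months, -0.09 to 0.11 between them) and of *Madd* at 18 months (-0.11 to 0.19); none of these was past the threshold. *Madd* at 30 months ran from 0.63 to 0.91. List medians at 30 months ran from -0.07 to 0.03 (Rab3 cycle), -0.23 to -0.07 (effectors), -0.12 to -0.03 (docking and fusion) and -0.09 to 0.11 (other Rabs), so the first and last had no settled sign.

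The counts over all probe sets were less stable. At 18 against 6 months 4 passed in limma (452 at an unadjusted p under 0.05), and 0 to 5 without 1 array, 0 in a fit of these 2 ages alone (385 unadjusted), 0 without both arrays with thyroglobulin signal (419) and 75 by the ratio of means over 1.7 without overlap. At 30 against 6 months 17 passed (677), and 0 to 20 without 1 array, 0 without both thyroglobulin arrays (574) and 117 by the ratio rule. At 30 against 18 months 1 passed (168), and 0 to 2 without 1 array, 0 with a pseudocount of 100 (157), 0 in the upper 40% (92), 0 in a fit of 2 ages (169), 0 without the thyroglobulin arrays (154), 4 without a filter and 33 by the ratio rule. Single arrays decided these counts. At 18 against 6 months, 0 passed when the 6-month replicate 2 (404 unadjusted) or the 18-month replicate 3 (442) was left out, and 2 when the 6-month replicate 1 or the 18-month replicate 2 was. At 30 against 6 months, leaving out the 6-month replicate 2 (581) or the 30-month replicate 2 (411) or 3 (591) gave 0, the 6-month replicate 3 gave 2, the 6-month replicate 1 gave 3 and the 30-month replicate 1 gave 10. At 30 against 18 months, leaving out the 6-month replicate 2 (156), the 18-month replicate 3 (153) or the 30-month replicate 2 (152) gave 0, and the 6-month replicate 1 gave 2. The cause was not tested. Deviations from the age means correlated at -0.0209 to 0.261 between same-numbered arrays of different ages. Between 18 and 30 months all same-numbered pairs (0.0855 to 0.261) lay above all differently numbered pairs (-0.205 to 0.00208). In pairs with a 6-month array both kinds overlapped, with differently numbered pairs at -0.15 to 0.149. The labels do not say what a replicate number stands for. With replicate number as a block 6, 11 and 0 probe sets passed (220 unadjusted in the last). *Madd* and *Rab3d* lay outside the upper 40% and have no value there.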

Other observations

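Within the docking and fusion list the tested genes differed among themselves at 30 months, and none passed the test. Without overlap, 5 of the 18 were lower at 30 months than at 6 months and 0 were higher, where 14.8% and 7.4% of all probe sets were. These 5, named after their values were seen, were *Syp* (synaptophysin, log2 change -0.67), *Sv2a* (-0.51), *Snap25* (-0.47), *Stx1a* (-0.33) and *Stxbp5* (-0.33). Other probe sets of *Stx1a* and *Snap25* gave 0.13 and -0.23. In their brightest probe sets the other 13 overlapped with 6 months. Among them were *Syt5* (-0.82), which had the lowest change of the list, and *Snap29* (-0.34). The synaptic genes *Vamp2* (0.00), *Vamp1* (-0.01), *Cadps* (-0.02), *Cplx1* (0.07), *Syt3* (0.21) and *Syngr1* (0.53) were also among them. The other probe set of *Vamp2* gave -0.57 and lay below its 6-month values without overlap. Those of *Syngr1* gave -0.45 and 0.43.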
